A study of Mus musculus with 3 samples.

Results

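A bidirectional promoter is the stretch of DNA between a pair of genes that lie head to head on opposite strands and are transcribed away from each other. Here these promoters were defined as pairs of protein-coding genes of GENCODE M1 on mm9 whose gene starts, the 5′ ends of the gene records, lay at most 1000 bp apart and whose records did not overlap. This gave 808 pairs with 1599 genes, which is 7.15% of the 22367 protein-coding genes. Reads were counted from 500 bp beyond one start to 500 bp beyond the other, and compared with the start ±500 bp of 18089 protein-coding genes that had no other protein-coding start within 5 kb, called single starts below. The rule uses gene positions and no read count.

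The reads come from MK_Mat_, mature megakaryocytes, the platelet-forming cells, grown from the fetal liver of wild-type CD1 mice and taken on culture day 5. By the methods they were cultured in thrombopoietin and selected over albumin gradients. Erythroid, granulocyte and macrophage cells were depleted with antibodies. ChIP-seq gave 1 library for FLI1 and 1 for RUNX1, and 1 further library of unprecipitated input chromatin served as control. Since the DNA of 3 or more precipitates was combined into each ChIP library, replicate error is unknown, libraries were not tested against each other, and every interval below covers counting error only. The labels give embryonic day 15 and the methods an earlier day, and they also differ on the library kit and on how the input chromatin was fragmented (sonication in the labels, micrococcal nuclease in the methods). The libraries held 62946422 FLI1, 3973856 RUNX1 and 21745220 input reads off chromosome M, so RUNX1 is the least precise. Reads were 50 bp long in both ChIP libraries and 34 bp in the input, so the control was not matched in read length. What this does to the values set against input was not tested. The study's own listing of uniquely mapped reads is higher for both factors and many times higher for RUNX1, so the deposited RUNX1 reads are not the whole of what it lists, and RUNX1 values here describe the deposited reads only. As a check of the labelled cell type, 9 of 10 megakaryocyte marker genes and 1 of 18 markers of erythroid, granulocyte and monocyte, lymphoid and hepatocyte cells had FLI1 at least 2 times input at their starts, beside 35.8% of all protein-coding starts, which measures binding and not RNA.

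Bidirectional promoters are usually rich in CpG, lack a TATA box and serve many housekeeping genes, among them genes of DNA repair, mitochondria and translation. FLI1 belongs to the ETS family of transcription factors, whose members bind a GGAA core, and RUNX1 is the DNA-binding partner of CBFβ. Both factors are required for normal platelet production. Other ETS factors of blood cells bind the same letters, so a sequence match does not name the factor bound there.

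The extended ETS sequence CCGGAA, searched on both strands so that it also reads TTCCGG, was present in the windows of 549 of 808 pairs (67.9%) against 30.2% of single starts and 33.7% of all protein-coding starts. At equal window length and a ratio of observed to expected CpG of at least 0.6, the shares were closer, 67.3% of pairs and 48.4% of single starts. The stretches below are 60 bases of mm9, plus strand, 5′ to 3′, around the match nearest to the 100 bp with most FLI1 reads. They are shown because these pairs include the highest FLI1 densities and the known pair Mcm4/Prkdc, and because the match lay within 30 bp of the centre of the densest FLI1 100 bp in each, a choice made after the values were seen. Of the 12 pairs with the highest FLI1 density, the match lay 46 bp away at Nfya/AI314976, 189 bp at Dhx38/Txnl4b and 316 bp at Mrps18b/Ppp1r10. AA474408/Zfp143 held none, and in the rest of the 12 it lay within 30 bp. Among known pairs it lay 190 bp away at Brca1/Nbr1, 291 bp at Atm/Npat and 13 bp at Mrps12/Sars2. Capitals mark CCGGAA or TTCCGG.
Zfp408/Arhgap1, chr2:91490196-91490255: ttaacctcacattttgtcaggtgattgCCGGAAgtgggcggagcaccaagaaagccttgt
Hjurp/Trpm8, chr1:90174164-90174223: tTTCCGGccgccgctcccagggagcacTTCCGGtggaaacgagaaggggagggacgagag
Cog8/Nip7, chr8:109580647-109580706: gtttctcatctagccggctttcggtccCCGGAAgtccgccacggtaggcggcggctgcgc
Mettl6/Eaf1, chr14:32308219-32308278: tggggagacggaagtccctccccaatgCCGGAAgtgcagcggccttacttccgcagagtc
Ddx5/Ccdc45, chr11:106650302-106650361: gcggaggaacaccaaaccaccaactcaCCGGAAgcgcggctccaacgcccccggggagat
Brix1/Rad1, chr15:10415742-10415801: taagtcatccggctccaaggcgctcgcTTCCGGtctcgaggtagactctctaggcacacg
Mcm4/Prkdc, chr16:15637562-15637621: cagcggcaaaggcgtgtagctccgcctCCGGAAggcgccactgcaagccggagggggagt

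FLI1 reads were denser over bidirectional promoters than over single starts. Densities are given as RPKM, the reads per kb of window scaled to the depth of the library. The median FLI1 density was 1.88 RPKM (quartiles 1.20 and 2.81) over the 808 pairs and 0.524 (quartiles 0.349 and 1.24) over single starts. With all reads summed, FLI1 density was 2.14 times that of single starts (95% interval 2.13 to 2.15). The median RUNX1 density was 1.10 against 0.503, and the pooled RUNX1 density was 1.66 times that of single starts (1.61 to 1.71). Input medians were 0.461 and 0.413, with a pooled ratio of 1.13 (1.11 to 1.15). That ratio turned to 0.666 when repeated input positions were kept, where 10 single starts held 96.5% of the repeats over single starts, and was 1.14 without those 10. Among windows with at least 5 input reads the input ratio was 1.00 (0.984 to 1.03), while FLI1 stayed at 1.98 and RUNX1 at 1.56. Windows with fewer input reads made up 43 of the pairs (5.32%) and 18.6% of single starts. This filter acts on the input counts themselves, so the ratio of 1.00 does not show that input was equal.

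Set against input, pooled FLI1 density was 4.39 times input over the pairs (4.30 to 4.48) and 2.31 times over single starts, and RUNX1 was 2.50 times (2.42 to 2.59) and 1.70 times. A window was called for FLI1 when its density was at least 2 times input with 0.2 added to both, and for RUNX1 when it also held 5 RUNX1 reads. FLI1 was called at 622 of 808 pairs (77.0%), beside 35.8% of all protein-coding starts and 30.9% of single starts. Among windows with a CpG ratio of at least 0.6, the FLI1 shares were closer, 82.9% of 680 pairs and 60.3% of 7466 single starts. The number called depended on the rule, with 389 pairs (48.1%) and 15.5% of single starts at a pseudocount of 1, and 181 pairs (22.4%) and 7.51% of single starts at 5-fold. RUNX1 was called at 367 pairs (45.4%), beside 20.0% of all protein-coding starts and 17.6% of single starts. With FLI1 thinned to the RUNX1 depth and put to the RUNX1 rule, FLI1 was called at 564 pairs (69.8%) and 25.2% of single starts, so at equal depth more pairs passed for FLI1 than for RUNX1. The deposited ChIP reads occupy each position and strand once, and this lowers the densest windows: allowing for filled positions added 4.70% to the FLI1 reads of the pairs and 3.56% to those of single starts, and moved the FLI1 ratio from 2.14 to 2.17.

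CpG content differed between the groups and moved with FLI1 and RUNX1. The median ratio of observed to expected CpG was 0.764 over the pairs and 0.484 over single starts, and GC content was 59.3% and 53.8%. Of the pairs, 680 had a CpG ratio of at least 0.6, 103 lay between 0.3 and 0.6, and 25 lay under 0.3. Among windows of at least 0.6, the FLI1 median was 1.99 over pairs and 1.19 over 7466 single starts, and the pooled ratio was 1.45 (1.44 to 1.45). In the same class RUNX1 was 1.20 times as dense as over single starts (1.16 to 1.24) and input 1.19 times (1.17 to 1.22). RUNX1 over input was therefore 2.76 (2.66 to 2.87) in pairs and 2.74 (2.70 to 2.77) in single starts, with overlapping intervals. When the pairs were counted over their midpoint ±500 bp, a window as long as that of single starts, RUNX1 over input was 2.97 (2.85 to 3.09), above the interval of single starts, so the RUNX1 comparison depended on the window. FLI1 over input was 4.86 (4.75 to 4.97) in pairs over the full window and 4.01 (3.98 to 4.05) in single starts.

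The 25 pairs under 0.3 carried little of either factor. Their median FLI1 density was 0.435, against 0.381 for single starts of the same class, and FLI1 over input was 0.924 (0.818 to 1.04). RUNX1 was 0.909 times as dense as over single starts of this class (0.665 to 1.21). In the middle class the FLI1 median was 1.39 over pairs and 0.492 over single starts. The pooled ratio was 2.00 (1.96 to 2.03), and that of input was 1.20. The groups were not alike within this class. The median CpG ratio was 0.523 over pairs and 0.445 over single starts, and CCGGAA was in 60.2% and 30.6%. Windows of pairs were also longer, so 2.00 is not a ratio at equal CpG content or window length.

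**Figure D1:**
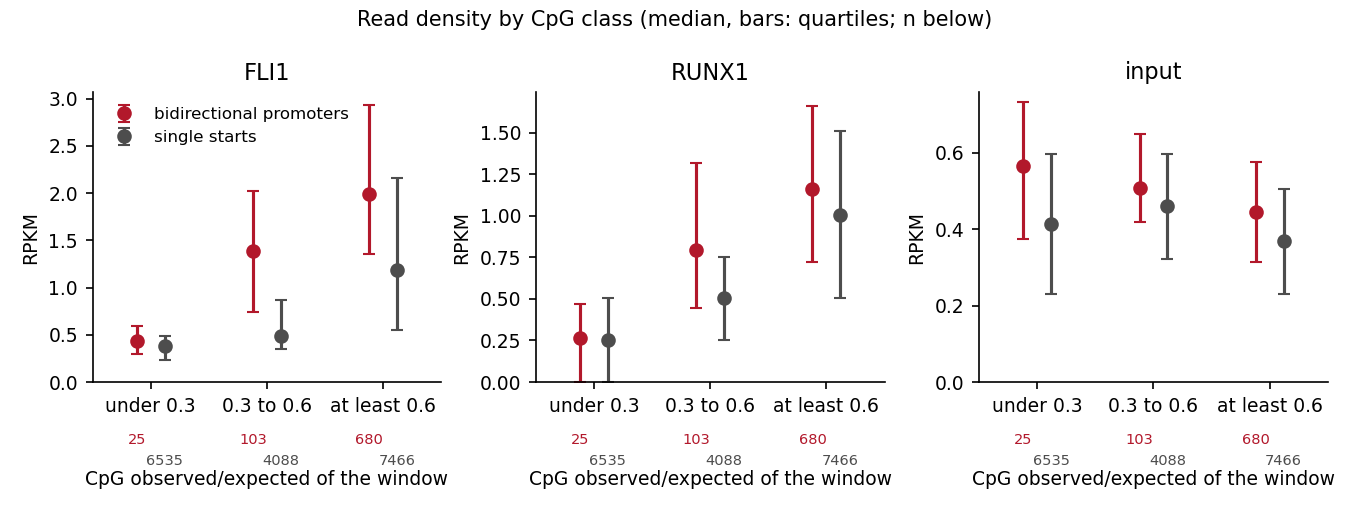
Median read density (RPKM, y axis from 0) of FLI1, RUNX1 and input by class of CpG observed/expected, for bidirectional promoters (red) and single starts (grey), with bars for the quartiles and the number of windows under each point. In the class of at least 0.6 the FLI1 medians are 1.99 and 1.19, while those of RUNX1 are 1.16 and 1.01 and those of input 0.445 and 0.368.

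FLI1 density was higher the more CCGGAA sequences a pair held. Pooled FLI1 over input was 2.87 (2.76 to 2.97) in the 259 pairs with none, 4.38 in 276 pairs with 1, 5.44 in 175 pairs with 2, 5.86 in 57 pairs with 3 and 7.95 (7.23 to 8.76) in 41 pairs with 4 or more. The called share was 55.6% with none and 95.1% with 4 or more. RUNX1 over input moved less over the same classes, from 2.05 (1.92 to 2.19) to 3.27 (2.80 to 3.82).

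Compared at equal CpG class and window length, pairs and single starts were furthest apart where the sequence was absent. With a CpG ratio of at least 0.6 and no CCGGAA, FLI1 over input was 3.88 (3.71 to 4.05) at the midpoint of 225 pairs and 2.86 (2.82 to 2.89) at 3852 single starts. With 1 sequence the values were 5.25 (5.04 to 5.48) and 4.36 (4.30 to 4.43), and with 2 they were 6.20 (5.88 to 6.54) and 5.59 (5.47 to 5.72). With 3 they were 6.99 (6.39 to 7.66) and 7.25 (6.97 to 7.55), and with 4 or more 9.48 (8.49 to 10.6) and 9.27 (8.77 to 9.80), where the intervals overlapped.

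**Figure D2:**
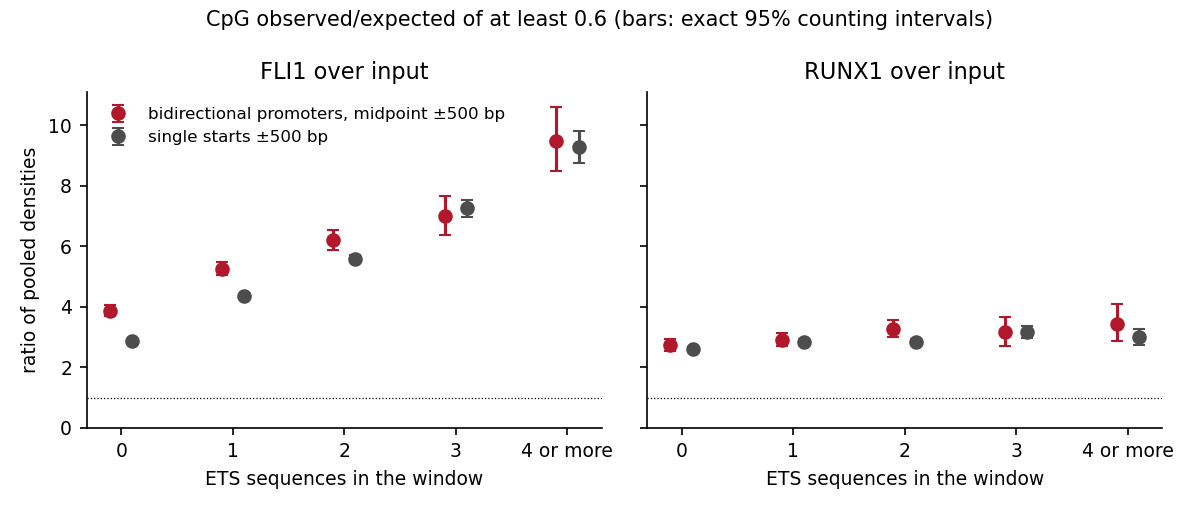
Pooled FLI1 (left) and RUNX1 (right) density over pooled input density (y axis from 0, dotted line at 1) by number of ETS sequences in the window, for bidirectional promoters at their midpoint ±500 bp (red) and single starts (grey) with CpG observed/expected of at least 0.6. Bars are exact 95% counting intervals. FLI1 climbs from 3.88 to 9.48 in pairs and from 2.86 to 9.27 in single starts, whereas RUNX1 stays between 2.59 and 3.43.

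In pairs, RUNX1 density differed little with the RUNX sequences. TGTGGT, searched on both strands, was in 320 pairs (39.6%) and 43.1% of single starts, and TGCGGT in 289 pairs (35.8%) and 20.7%. The shares were closer at like CpG content: at a CpG ratio of at least 0.6 and equal window length, TGTGGT was in 32.5% of pairs and 31.1% of single starts, and TGCGGT in 31.3% and 32.7%. Pooled RUNX1 density was 1.17 in pairs with TGTGGT and 1.17 in those without it, and 1.19 and 1.16 for TGCGGT. At single starts it was 0.665 with and 0.736 without TGTGGT, and 0.909 with and 0.652 without TGCGGT, where the median CpG ratio was 0.693 with and 0.387 without TGCGGT. Other sequences of CpG-rich promoters, searched in the same way, were frequent. The SP sequence GGGCGG was in 90.3% of pairs and 56.8% of single starts, the NRF1 sequence GCATGCGC in 10.5% and 4.62%, and the YY1 sequence AAGATGGC in 15.7% and 7.09%. At the same CpG ratio and window length, the SP sequence was in 91.9% of pairs and 92.8% of single starts, that of NRF1 in 10.9% and 8.38%, and that of YY1 in 15.4% and 9.46%. In pairs, pooled FLI1 density differed less with these than with CCGGAA, which gave 2.40 with and 1.32 without. It was 2.06 with and 1.88 without the SP sequence, which 78 pairs lacked, and 2.21 and 2.02 for that of YY1. At single starts the SP sequence went with a wide difference too, 1.27 with and 0.544 without, against 1.65 and 0.657 for CCGGAA. The median CpG ratio there was 0.707 with and 0.196 without the SP sequence. For NRF1 FLI1 was 1.54 and 0.928, and for YY1 1.23 and 0.936.

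Both factors were densest between the starts and in the first 100 bp of the genes. The median distance between paired starts was 141 bp (quartiles 73 and 271), and 637 pairs (78.8%) lay within 300 bp. Between the starts, density was 3.60 for FLI1, 1.65 for RUNX1 and 0.452 for input, which is 7.96 (7.57 to 8.36) and 3.64 (3.37 to 3.93) times input. The first 100 bp into both genes held 3.43 for FLI1, 8.39 times input (7.95 to 8.85), and 3.71 times input for RUNX1 (3.41 to 4.02), so relative to input these stretches and the DNA between the starts had overlapping intervals. The next 100 bp held a FLI1 density of 1.70, and the stretch from 1000 to 2000 bp 0.567 against an input of 0.487.

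The shape changed with the distance between the starts. For the 298 pairs up to 100 bp apart, FLI1 between the starts was 14.4 times input (12.4 to 16.8) and RUNX1 5.83 times (4.74 to 7.17), with a single FLI1 maximum of 7.78 in the 50 bp around a point 5 bp from the midpoint. For the 56 pairs over 600 bp apart, FLI1 between the starts was 3.39 times input (3.08 to 3.75), below the 5.05 times (4.10 to 6.30) of the first 100 bp into their genes. Over the whole window it was 4.76 times input (4.59 to 4.93) in the closest pairs and 3.00 times (2.81 to 3.20) in those over 600 bp apart, with 33 pairs called (58.9%) against 243 (81.5%) of the closest pairs. Their profile had a separate FLI1 maximum on each side, near each start, and FLI1 was 1.12 at 75 bp from the midpoint. Pairs farther apart also had a lower median CpG ratio, 0.649 against 0.780 for the closest, and fewer held CCGGAA (55.4% against 72.8%). Their windows were longer as well, with a median of 1735.5 bp against 1061 bp. The stretch between the starts was itself unlike, 43.0 kb in all over these 56 pairs and 16.9 kb over the 298 closest. The values 3.39 and 14.4 thus average over DNA at different distances from a start. The part of these differences in the result was not tested. Input alternated along the closest pairs, from 0.839 at 165 bp to 0.293 at −265 bp.

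**Figure D3:**
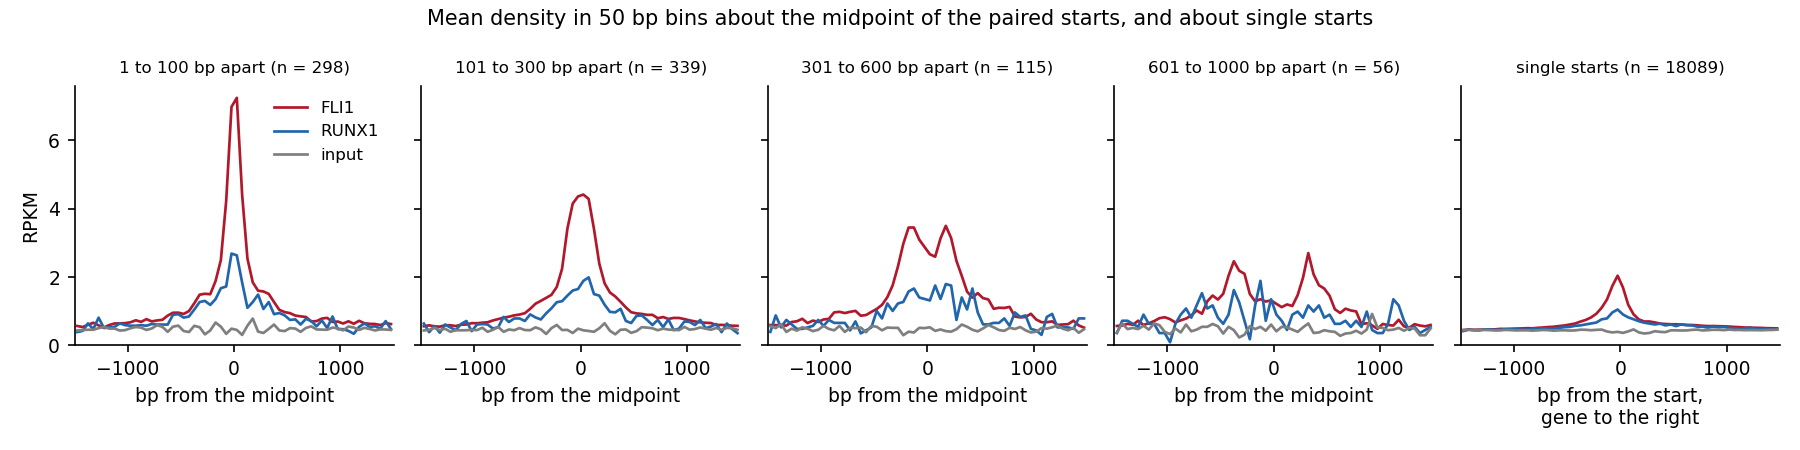
Mean density of FLI1 (red), RUNX1 (blue) and input (grey) in RPKM, in 50 bp bins against distance from the midpoint of the paired starts for 4 classes of distance, and from the start for single starts. FLI1 forms 1 maximum for the closest pairs and a maximum near each start for pairs over 300 bp apart. Input rises and falls too but is highest elsewhere, near 165 bp from the midpoint in the closest pairs and near 915 bp in those over 600 bp apart.

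In the 622 called pairs, the 100 bp with most FLI1 reads were centred between the starts in 299 (48.1%), although the DNA between the starts was 16.7% of the length searched. They lay in the gene on the minus strand in 146 pairs and in that on the plus strand in 177, at a median of 40 bp from the nearer start. CCGGAA lay within 50 bp of that centre in 321 called pairs (51.6%), while 9.86% of all 100 bp tiles of the same windows held it. For called single starts the figures were 35.2% and 7.65%. A match cut by the edge of a tile was not counted, and tiles covered the whole window and not only the DNA near the starts. The tile shares are therefore not a matched baseline. Reads on either side of the midpoint differed more than 2-fold in 217 called pairs (34.9%), and the higher side was the plus-strand gene in 319 pairs and the minus-strand gene in 298.

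The highest FLI1 density was at Zfp408/Arhgap1, a zinc finger gene and a gene of a GTPase-activating protein whose starts lay 69 bp apart (window chr2:91489448-91490517). It held 531 FLI1, 9 RUNX1 and 13 input reads, a FLI1 density of 7.88 (7.23 to 8.58), and 7 CCGGAA sequences. FLI1 was on the Arhgap1 side, with 438 reads there and 92 on the side of Zfp408. Hjurp/Trpm8, which join the chaperone of the centromeric histone CENP-A and a cold-sensing ion channel, held 505 FLI1, 13 RUNX1 and 25 input reads. Cog8/Nip7, of Golgi transport and ribosome assembly, held 512, 8 and 14 reads. With 13 input reads, the plain ratio of FLI1 to input density at Zfp408/Arhgap1, 14.1, had an interval from 8.18 to 26.7.

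The other pairs among the 12 highest were Atp6v1d/Eif2s1, Tada3/Arpc4, Mettl6/Eaf1, Ddx5/Ccdc45, Dhx38/Txnl4b, Mrps18b/Ppp1r10, AA474408/Zfp143, Ttc9c/Hnrnpul2 and Nfya/AI314976, with FLI1 densities from 5.31 to 6.84. AA474408/Zfp143 held 481 FLI1, 6 RUNX1 and 10 input reads and no CCGGAA.

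RUNX1 was densest at Cryzl1/Itsn1, which holds the gene of the endocytic scaffold intersectin 1, with 203 FLI1, 19 RUNX1 and 16 input reads. Rad17/Taf9, of the DNA damage checkpoint and of TFIID, held 329, 18 and 10 reads. Slc35a5/Atg3 followed with 166, 15 and 14 reads, Snx1/Fam96a with 307, 14 and 16, and Hjurp/Trpm8 was the fifth. With at most 19 RUNX1 reads in these windows, their order is not resolved.

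Pairs known from other work were partly outside the rule, since the gene records of Hspd1/Hspe1, Surf1/Surf2, Ppat/Paics, Col4a1/Col4a2 and Sirt3/Psmd13 overlap in this annotation. Of those that met it, Brca1/Nbr1 held 237 FLI1, 6 RUNX1 and 10 input reads. Mcm4/Prkdc, of the replicative helicase and of the DNA-dependent protein kinase, held 269, 3 and 18 reads. Atm/Npat, of the DNA damage kinase and of a histone gene activator, held 238, 10 and 21. Mrps12/Sars2 held 124, 9 and 19 reads and was the only one of these 4 not called for FLI1, with a fold of 1.99 after 0.2 was added to both densities, while Mcm4/Prkdc was the only one not called for RUNX1.

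At the other end, Dmrtc1a/1700011M02Rik held 5 FLI1, 0 RUNX1 and 8 input reads, Gm17649/Hoxc13 11, 1 and 5, and Ptchd1/Gm15155 20, 2 and 11. In 5 pairs all 3 libraries held 0 reads, 2 of them with a clustered histone gene, such as Hist1h2bq/Hist1h2ao. No fold is given for those. Just inside the distance limit, Btf3l4/Txndc12 (987 bp) had a FLI1 density of 2.06 and Pdzd7/Sfxn3 (987 bp) 1.12. Just outside, Nacc1/Trmt1 (1004 bp) had 1.24 and Serpina7/4930513O06Rik (1007 bp) 0.364.

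The share of a gene list found in pairs, beside 7.15% of all protein-coding genes, was 28.4% for DNA repair and replication, 24.2% for the respiratory chain, 22.3% for RNA polymerase and general transcription factors, 20.8% for the mitochondrial ribosome, 18.9% for aminoacyl-tRNA synthetases, 17.3% for chaperones, 14.0% for the proteasome and 4.90% for zinc finger genes, and 9 of 82 cytosolic ribosome genes were in pairs. These shares were not tested. The pairs called for FLI1 are read beside 77.0% of all pairs. Of 141 DNA repair and replication genes, 40 were in 40 pairs, of which 35 were called at a median FLI1 density of 2.26, from Mospd2/Fancb at 0.757 to Brix1/Rad1 at 4.85. The mitochondrial ribosome list had 14 of 16 pairs called (median 2.65), with Mrps18b/Ppp1r10 the highest at 5.62. RNA polymerase and general transcription factor genes had 22 of 25 called (1.94), cytosolic ribosome genes 8 of 9 (2.05) and aminoacyl-tRNA synthetase genes 6 of 7 (2.79). Respiratory chain genes had 17 of 23 (1.60), proteasome genes 6 of 7 (1.56), chaperone genes 10 of 14 (2.12) and zinc finger (Zfp) genes 12 of 17 (1.40). These are shares near that of all pairs, over few pairs. Of all single starts, 30.9% were called. For some of these lists the median FLI1 density was higher at single starts than in pairs, unlike over all genes. Cytosolic ribosome genes had 48 of 52 called at 2.59 and proteasome genes 29 of 34 at 2.32. RNA polymerase and general transcription factor genes had 58 of 66 at 2.13 and respiratory chain genes 45 of 56 at 1.63. The median fold over input of respiratory chain genes went the other way, 3.61 in pairs and 2.85 at single starts. That of RNA polymerase and general transcription factor genes was close, 3.73 and 3.81. It stayed higher at single starts for cytosolic ribosome genes (3.26 and 4.78) and proteasome genes (2.49 and 3.43). Windows of pairs were longer, and the lists were not compared at equal length. The median density was lower at single starts for DNA repair and replication genes (60 of 81 called, 1.68). By fold over input that list was near equal, 3.27 in pairs and 3.30 at single starts. The density was also lower for mitochondrial ribosome genes (32 of 40, 1.98) and aminoacyl-tRNA synthetase genes (21 of 24, 2.09). The same held for chaperone genes (24 of 47, 1.21) and zinc finger genes (154 of 322, 0.920).

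Among the lists with at least 2 pairs, clustered histone genes had the lowest median. Of 67 such genes, 27 (40.3%) were in 14 pairs, of which 6 were called, at a median FLI1 density of 0.727 and a median input density of 0.244, beside 0.461 over all pairs, and 1 of the 14 held CCGGAA. The single starts of this list were low as well, with 3 of 7 called at a median of 0.635. Histone genes of a cluster are near-identical in sequence and the authors kept uniquely mapped reads, so counts in these windows are uncertain in all libraries. The collagen list had 1 pair, Col4a4/Col4a3, of basement membrane collagen, which held 28 FLI1, 4 RUNX1 and 12 input reads. It had a lower FLI1 density of 0.415 and was not called for FLI1. Of 35 collagen genes at single starts 1 was called, at a median of 0.429.

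Of the 69 genes of the megakaryocyte and platelet list, 2 (2.90%) were in pairs, beside 7.15% of all protein-coding genes, a difference that was not tested and rests on 2 genes. Gm9776/Ap3b1, which holds the gene of an AP-3 subunit needed for platelet granules, had 161 FLI1, 6 RUNX1 and 10 input reads. Srrd/Hps4, with a Hermansky-Pudlak syndrome gene, had 79, 8 and 6. Both were called for both factors. Of the 58 genes of this list at single starts, 41 were called for FLI1, at a median density of 2.19, beside 30.9% and 0.524 for all single starts.

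**Figure D4:**
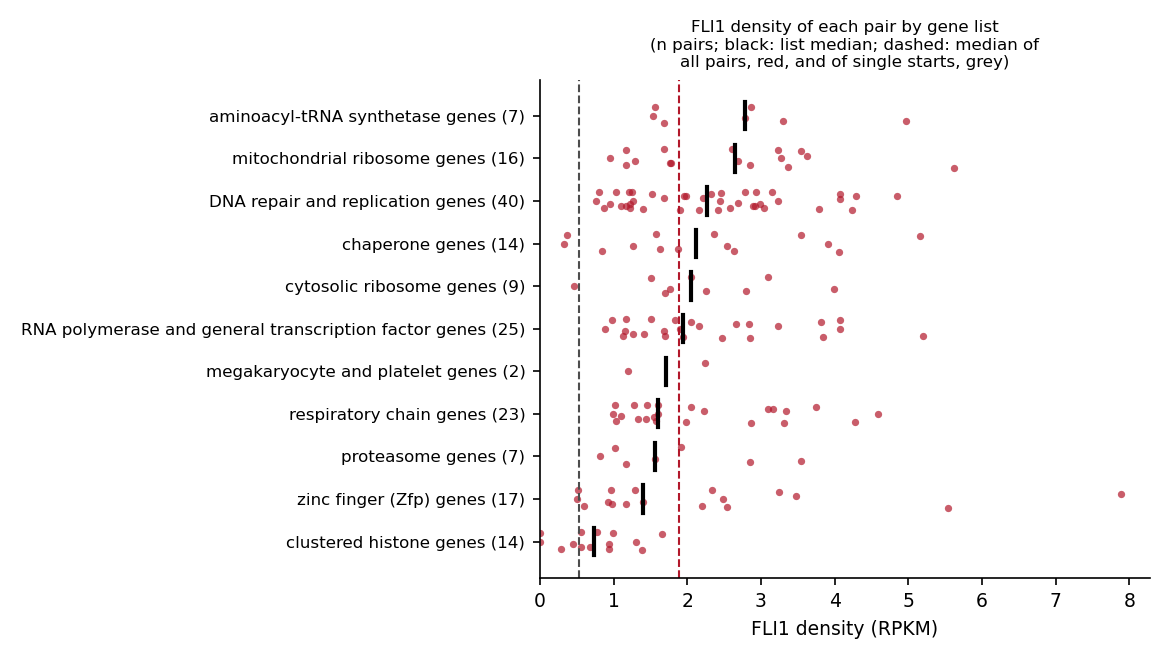
FLI1 density (RPKM, axis from 0) of each bidirectional promoter by gene list, for lists with at least 2 pairs, with the number of pairs in brackets, a black line at the median of the list, and dashed lines at the median of all pairs (red, 1.88) and of single starts (grey, 0.524). Of the lists drawn, clustered histone genes have the lowest median, 0.727, and aminoacyl-tRNA synthetase genes the highest, 2.79.

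RUNX1 was denser where FLI1 was denser. When the pairs were put in 5 equal groups by FLI1 density, RUNX1 over input was 1.59 (1.44 to 1.76) in the lowest, 2.47, 2.41 and 2.66 in the middle groups and 3.31 (3.07 to 3.56) in the highest. RUNX1 was called at 19.1% of pairs in the lowest and 65.2% in the highest. Pairs of the lowest group also had the lowest input density, 0.400 against 0.476 in the highest, and the lowest median CpG ratio, 0.695 against 0.798. Within pairs of a CpG ratio of at least 0.6, RUNX1 over input was 2.19 (1.93 to 2.48) in the lowest group and 3.37 (3.13 to 3.63) in the highest. FLI1 values of these groups follow from the ordering and are not a result.

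**Figure D5:**
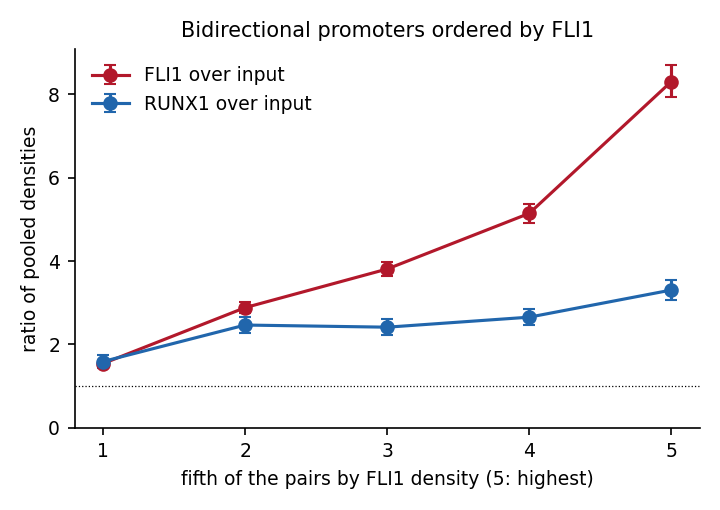
Pooled FLI1 (red) and RUNX1 (blue) density over pooled input density, y axis from 0 with a dotted line at 1, for the 808 bidirectional promoters in 5 equal groups by FLI1 density, with exact 95% counting intervals. FLI1 rises by construction, and RUNX1 over input goes from 1.59 to 3.31.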

How the data were processed

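Alignment by the authors was to mm9, with Bowtie, and reads with several placements or repeated positions were dropped. The deposited files list reads by position and strand, and the read count of each window was made here from these positions. The Bowtie version is not given in the sources used here. Each position and strand occurs once in both ChIP files, while 3.24% of input reads repeated a position and were counted once. Reads were moved 75 bp towards the 3′ end, and counts were divided by window length and by reads off chromosome M. Intervals are exact 95% Poisson intervals of sums or ratios of sums. PCR reads without molecular identifiers are not independent molecules, so they cover counting error only. Read counting and ratios were tested on simulated reads with known densities. That test showed that keeping 1 read per position and strand lowers high FLI1 densities slightly, and a correction for it was added as an alternative after the data were seen, as were leaving out windows of high input and counting each gene of a pair by its own start. Sequence was read from mm9 and starts from GENCODE M1. Scripts used Python 3.11.15, numpy 2.4.6, scipy 1.17.1, pandas 2.3.3, pysam 0.24.0 and matplotlib 3.10.9.

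The pairs named were the 12 with the highest FLI1 density, the 3 lowest with at least 5 input reads, the 5 with the highest RUNX1 density, pairs with a megakaryocyte or platelet gene, known pairs, the highest and lowest of each gene list, and those nearest the distance limit. Not every pair the rule selects is described, and some are not reported here. The members and gene lists were chosen with earlier results of these data known. Rad17/Taf9 and Wfdc3/Dnttip1 are each listed as 2 pairs, and Spry4/9630014M24Rik and Spry4/Arhgap26 share their window, so the 808 pairs are 805 distinct windows, and 34 pairs overlap another.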

Additional observations from a re-analysis of the deposited data

How the results depend on the processing

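No paired analysis was possible because each antibody has 1 library, and for the same reason no library could be left out. The ratio of pairs to single starts stayed above 1 for FLI1 and RUNX1 under each alternative given here, but in the class of CpG ratio under 0.3, with 25 pairs, it was 0.909 for RUNX1. For FLI1, 2.14 as reported, it was 2.37 at the midpoint ±500 bp, 2.18 with 250 bp beyond the starts, 2.21 against single starts with no annotated start of any kind within 5 kb, 2.25 for pairs at most 300 bp apart, 1.98 with at least 5 input reads, 2.17 without clustered histone genes, 1.45 at a CpG ratio of at least 0.6, 2.33 with each gene's own start and 2.17 after correction for 1 read per position and strand. For RUNX1, 1.66 as reported, the same settings gave 1.79 at the midpoint, 1.73 with 250 bp, 1.74 for pairs at most 300 bp apart, 1.56 with at least 5 input reads, 1.20 at the high CpG ratio and 1.76 with each gene's own start. The input ratio, 1.13 as reported, was 1.00 with at least 5 input reads, a filter on the input counts themselves. It was 1.19 at the high CpG ratio and reversed to 0.666 when repeated input positions were kept. In that setting 10 single starts held 96.5% of the repeats over single starts, and without these 10 the ratio was 1.14. FLI1 calls, 622 pairs and 5595 single starts as reported, were 389 and 2809 with a pseudocount of 1 and 181 and 1358 at 5-fold, and 428 and 3417 at 3-fold. Among windows with a CpG ratio of at least 0.6, 564 of 680 pairs (82.9%) and 4499 of 7466 single starts (60.3%) were called. Counted by each gene's own start, 1233 of 1599 genes of the pairs were called.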
